A study of Mus musculus with 16 samples.

Results

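The comparison described here is a difference of differences: the log2 step from bladder to urethra in male embryos minus the same step in female embryos. It rests on 16 of the 16 libraries of the study, which hold mesenchyme of untreated, wild-type mouse embryos of the CD-1 stock taken at embryonic day 16.5. They form 4 groups of 4: bladder of females, bladder of males, pelvic urethra of females and pelvic urethra of males. The stock is outbred, so litters differ in genotype, and each library pooled the embryos of 1 sex from 1 litter, which leaves the spread between single embryos unmeasured. Each of the 4 litters gave 1 library to every group, the replicate number is the litter, and the litter entered the fit as a block. The mesenchyme was separated from the epithelium by trypsin on ice and forceps, and the labels name no sorting of cells. A positive interaction means that the urethra stood higher relative to the bladder in males than in females, and, as the same number, that the male minus female difference was larger in the urethra than in the bladder.

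Mesenchyme is the loose tissue under the epithelium, which in the bladder becomes detrusor muscle and connective tissue and in the pelvic urethra also gives rise to the stroma that instructs prostate budding in males. Late in gestation the fetal testis secretes testosterone, which the enzyme steroid 5-alpha-reductase turns into dihydrotestosterone in the target tissue. Androgen action in the urogenital mesenchyme, more than in the epithelium, is known to drive prostate induction. Female embryos of the same litter lack a testis of their own.

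The libraries held 18577097 to 20808028 counts in female bladder, 19357942 to 22293812 in male bladder, 24447435 to 29698009 in female urethra and 26715776 to 27003219 in male urethra. Depth thus went with the compartment, and its range was wider in female than in male urethra. Transcripts of Xist, the RNA of the inactive X chromosome, numbered 5593 to 9544 in the female and 1 to 9 in the male libraries, which matched the sex labels in all 16. Epithelial transcripts remained in each library: the mean log2 CPM (counts scaled to the TMM-adjusted library total) of 28 epithelium genes was 6.19, 6.36, 5.49 and 5.84 in female bladder, 6.24, 6.58, 6.56 and 6.45 in male bladder, 6.15, 6.13, 5.38 and 4.75 in female urethra, and 6.18, 5.90, 6.05 and 6.31 in male urethra. Female urethra replicates 3 and 4 therefore lay below the other urethra libraries in epithelium genes. Female bladder replicates 3 and 4, from the same litters and sex, likewise lay below the other bladder libraries. The mean log2 CPM of 20 neuron genes was 4.72 in male bladder replicate 3 and 1.69 to 3.29 in the 7 other bladder libraries. The counts of called genes and the called lists that moved are given with and without female urethra replicates 3 and 4, and male bladder replicate 3. In bulk tissue, fewer cells of a type and less RNA per cell cannot be told apart.

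Of 18254 genes tested by edgeR's quasi-likelihood method, 165 passed the interaction test (0.904%; threshold 0.05, with p adjusted by Benjamini and Hochberg over all tested genes). The interaction was positive for 126 of them (0.69%) and negative for 39 (0.214%), against a median of −0.01 over all tested genes. At an unadjusted p under 0.05 there were 1900 genes. The size was at least 2-fold for 86 of the 165. The same litters called these genes, which largely fixes their signs, and 164 had the same sign in 4 of 4 litters. The exception was the predicted gene Gm6397, which is singled out here after its values were seen. Without female urethra replicates 3 and 4 there were 64 genes (57 positive and 7 negative), of which 59 were among the 165. Without male bladder replicate 3 there were 118 (100 positive and 18 negative), of which 108 were among the 165. Other single libraries moved the count as far: it was 109 without female bladder replicate 4, 102 without female urethra replicate 2, 91 without female urethra replicate 4, 109 without male urethra replicate 1 and 93 without male urethra replicate 2. Of the 43 called genes named by rule, 19 lost their call without female urethra replicates 3 and 4: Ramp2, Maf, Ibsp, Cyp2f2, Wnt16, Sfrp4, Penk, Fst and Hoxb9 among the positive, and Ephb1, Gdf5, Fibin, Tcerg1l, Ikzf3, Lrrtm1, Enpp2, Zfp42, Dsc3 and Pnoc among the negative genes. Without male bladder replicate 3 it was 5, namely Cyp2f2, Dmrt2, Zfp42, Fst and Dsc3. Leaving out litter 1, 2, 3 or 4 gave 46, 77, 71 or 64 genes, of which 43, 65, 65 or 61 were among the 165. In that order, 24, 15, 17 and 20 of the 43 named genes lost their calls. Cpxm2 and Sfrp2 were among those lost without litter 1, and Klf9 was lost without each litter. Each of the 165 kept its sign in every alternative in which it was tested. The alternatives reuse the libraries that called these genes, so the kept signs are not independent evidence.

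Most of these genes differed between the sexes in the urethra. A male minus female difference was called in the urethra alone for 133 of the 165 genes, in the bladder alone for 14, in both with 1 direction for 3, in both with opposite directions for 1 and in neither for 14. Over all tested genes this difference was called for 1500 (8.22%; 4.69% higher and 3.53% lower in males) in the urethra and 132 (0.723%) in the bladder. The gene called in opposite directions was Ptn, which encodes the heparin-binding growth factor pleiotrophin and is named for that pattern after its values were seen. Its male minus female log2 difference was 0.42 ± 0.09 in the urethra (adjusted p = 0.00982) and −0.48 ± 0.09 in the bladder (adjusted p = 0.0304). The median size of the male to female log2 ratio over 17617 autosomal genes was 0.128, 0.170, 0.122 and 0.232 in the urethra of litters 1 to 4, and 0.130, 0.138, 0.170 and 0.182 in the bladder. The urethra had the larger value in 2 of 4 litters, with means of 0.163 ± 0.051 and 0.155 ± 0.025 (SD, n = 4). These medians also hold the sampling error of single libraries, which differed in depth between compartments, and no test is given, since an exact permutation test of 4 pairs could not go below a p of 0.125.

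**Figure D1:**
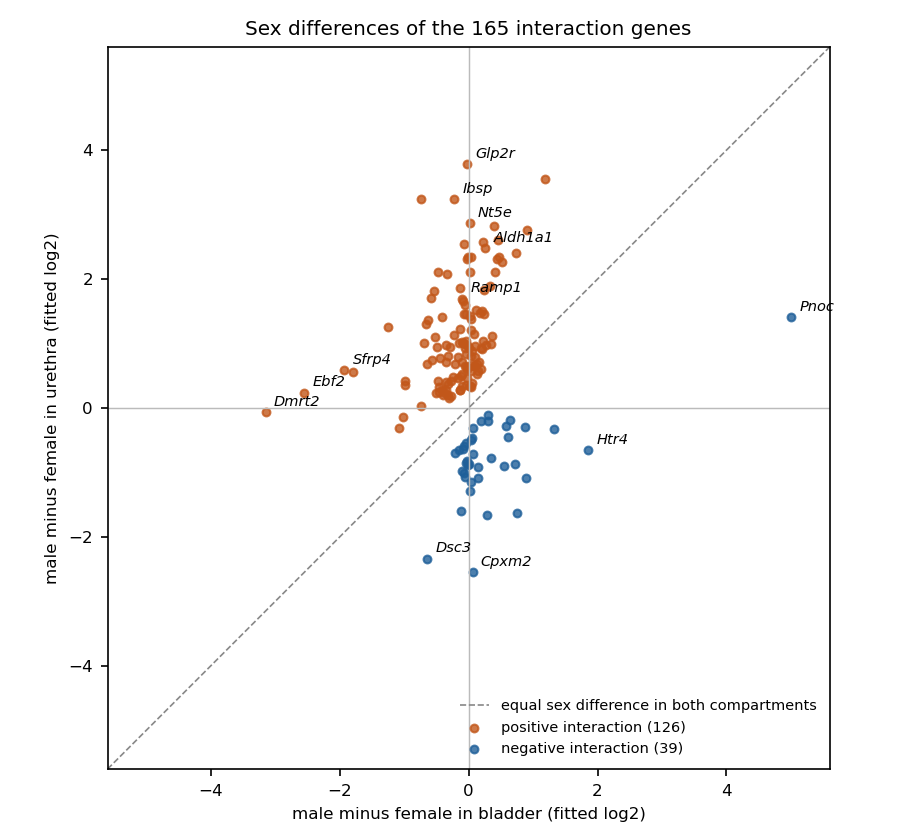
Fitted log2 male minus female difference in the urethra (vertical axis) against that in the bladder (horizontal axis), each point 1 of the 165 genes with an interaction, orange for the 126 positive and blue for the 39 negative ones, and the dashed line marking equal differences. Most points lie near 0 on the bladder axis, and Dmrt2, Ebf2, Sfrp4 and Pnoc are among those far from 0 on it.

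Which group stood apart was read from the libraries themselves: a group was counted when its 4 libraries all lay above, or all below, the 12 others in log2 CPM. Where 2 groups did so for a gene (21 of the 165), the gene was given to the one with the wider gap between its mean and the nearest other mean. Counted this way, male urethra had 64 of the 165 genes (38.8%, against 3.55% of all tested genes), as the highest group for 57 and the lowest for 7. Female urethra had 65 (39.4%, against 6.29%), as the lowest for 45 and the highest for 20. Male bladder stood apart for 10 (6.06%, against 3.03%; lowest for 9) and female bladder for 9 (5.45%, against 1.12%; lowest for 7). No group did so for 17. With such genes counted for both groups, male urethra stood apart for 73 genes (64 highest and 9 lowest) and female urethra for 71 (49 lowest and 22 highest), against 3.66% and 6.69% of all tested genes. Tfcp2l1, Glp2r, Clu, Fkbp5 and Col4a5 were among those with female urethra lowest and male urethra highest. These shares describe the called genes and were not tested, since the same libraries called the interaction, and a group that stands apart largely fixes its sign. By the count of 1 group a gene, the 57 genes highest in male urethra and the 45 lowest in female urethra were all positive. The 20 genes highest in female urethra and the 7 lowest in male urethra were all negative.

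**Figure D2:**
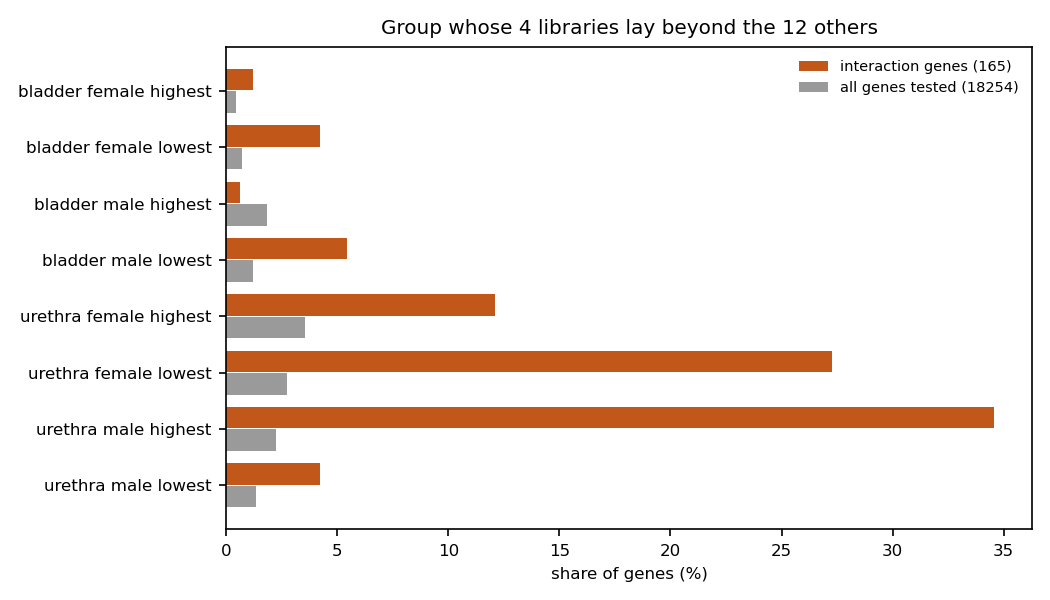
Share of genes (horizontal axis, in percent) for which the 4 libraries of the named group all lay above or all below the 12 others, each gene given to 1 group, for the 165 interaction genes (orange) and for all 18254 tested genes (grey). Male urethra as the highest group and female urethra as the lowest have the longest orange bars, at 34.5% and 27.3%.

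Ramp1 and Nt5e, which act in peptide hormone and adenosine signalling, had the smallest p-values of all tested genes. In a list of adenosine, CGRP (calcitonin gene-related peptide) and GLP2 (glucagon-like peptide 2) signalling genes, 5 of 19 tested were positive and 0 negative (26.3% against 0.904% of all tested genes), with a list median of 0.08. The list was drawn up with Nt5e already known to differ between the sexes in these libraries, so its count is not independent evidence. There were 4 of 19 positive without female urethra replicates 3 and 4.

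Nt5e encodes CD73, the surface enzyme that turns AMP into adenosine, and lies on chromosome 9 from 88327197 to 88372092 (GRCm38). In replicates 1 to 4, Nt5e stood at 40.3, 36.4, 55.9 and 48.9 CPM in female bladder, 48.7, 36.6, 55.05 and 42.9 in male bladder, 7.78, 7.74, 7.52 and 8.73 in female urethra, and 59.96, 57.99, 55.1 and 58.7 in male urethra. The female urethra libraries lay far below the 12 others with no overlap, and the male urethra libraries overlapped only the top of the bladder range. The interaction was 2.86 ± 0.16 (log2, standard error; adjusted p = 1.01e-06), from a sex difference of 2.87 ± 0.12 in the urethra and 0.02 ± 0.11 in the bladder (adjusted p = 0.970). Seen by compartment, Nt5e was lower in the urethra than in the bladder in females (−2.50 ± 0.12) and higher in males (0.35 ± 0.11, adjusted p = 0.0102).

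Ramp1, the partner protein that makes the calcitonin receptor-like receptor respond to CGRP, lies on chromosome 1 from 91179822 to 91225196. Its libraries read 46.5, 44.4, 39.7 and 46.6 CPM in female bladder, 48.4, 38.3, 36.4 and 42.8 in male bladder, 6.89, 6.58, 5.23 and 5.90 in female urethra, and 21.9, 21.5, 17.7 and 18.7 in male urethra. All 8 urethra libraries lay below the bladder ones, and the female urethra libraries lay below the male ones. The interaction was 1.80 ± 0.10 (adjusted p = 6.20e-07), with litter values of 1.597, 1.91, 1.87 and 1.77. Calcrl, the receptor itself (chromosome 2 from 84330626 to 84425411), read 35.1, 36.8, 35.2 and 30.8 CPM in female bladder, 36.9, 33.3, 39.3 and 37.4 in male bladder, 65.8, 64.8, 71.3 and 77.1 in female urethra, and 103, 102, 120.0 and 112 in male urethra. Here the urethra was the higher compartment in both sexes and male urethra the highest group, with an interaction of 0.56 ± 0.10 (adjusted p = 0.0139). Ramp2, which turns the same receptor into an adrenomedullin receptor, had 0.52 ± 0.11 (adjusted p = 0.0417), with no group apart. Its adjusted p was 0.0584 with no litter block and 0.0591 with a block by litter and sex pool.

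Glp2r, the receptor of glucagon-like peptide 2 (chromosome 11 from 67661502 to 67771153), had an interaction of 3.798 ± 0.33 (adjusted p = 7.16e-05). Its libraries read 2.91, 2.39, 4.56 and 3.72 CPM in female bladder, 4.62, 2.48, 3.47 and 2.85 in male bladder, 0.476, 0.401, 0.677 and 0.540 in female urethra, and 6.73, 8.21, 6.29 and 7.56 in male urethra. Female urethra was the lowest group and male urethra lay above each bladder library, so the bladder groups sat between the sexes of the urethra. The ligand genes of the CGRP receptor did not pass the test: Calca had −0.78 ± 0.51 (adjusted p = 0.665) and Calcb −1.31 ± 0.52 (adjusted p = 0.398). Nor did the adenosine receptor genes Adora1 (−0.11), Adora2a (0.12) and Adora2b (0.04), or Ramp3 (0.06).

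**Figure D3:**
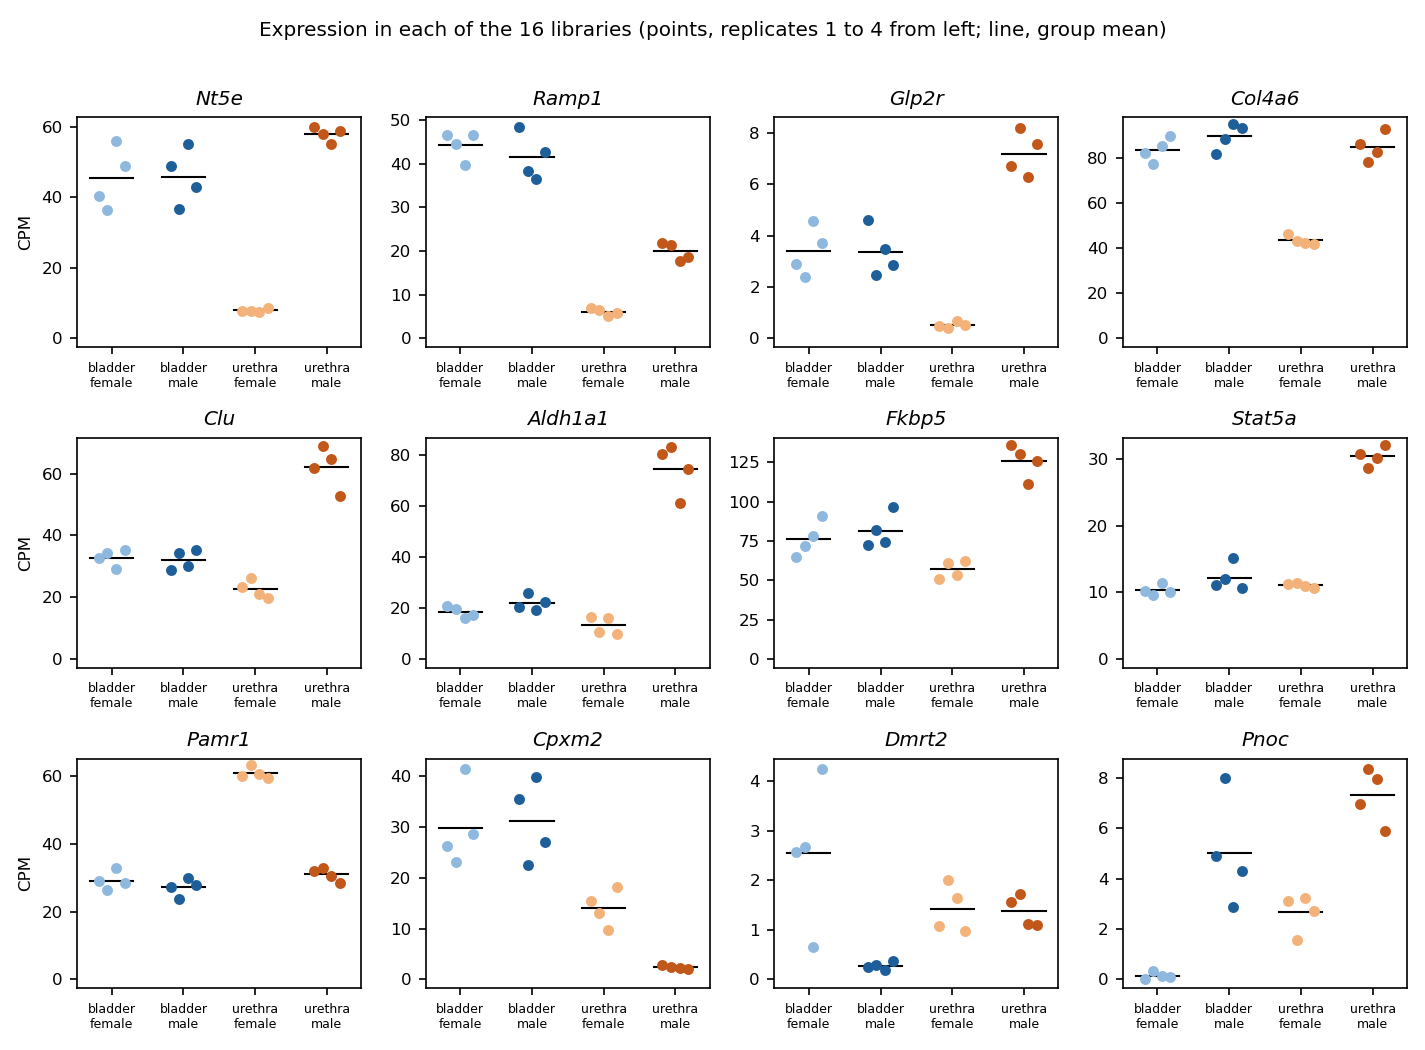
CPM (vertical axes, linear) of 12 genes in each of the 16 libraries, with 1 point per library, replicates 1 to 4 from left to right in each group, and a line at the group mean. Nt5e, Ramp1, Glp2r and Col4a6 are lowest in female urethra, Clu, Aldh1a1, Fkbp5 and Stat5a highest in male urethra, Pamr1 highest in female urethra, Cpxm2 lowest in male urethra, Dmrt2 lowest in male bladder and Pnoc lowest in female bladder.

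Fkbp5, Stat5a, Zbtb16, Klf9 and Maf, which were listed as androgen responsive, had positive interactions along with Nt5e. Of 28 tested members of a list of such genes, 6 were positive and 0 negative (21.4% against 0.904%), and the list median was 0.40 against −0.01 over all tested genes. Nt5e and Stat5a entered this list with earlier results of these libraries known, so its count and share are not independent evidence. Several members also respond to glucocorticoids. Of the 28, 22 had a value above 0. The count was 5 of 28, with a median of 0.38, without female urethra replicates 3 and 4, and 7 of 28, with a median of 0.44, without male bladder replicate 3.

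Fkbp5, an immunophilin that binds the chaperone complex of steroid receptors (chromosome 17 from 28399094 to 28517527), read 64.7, 72.2, 78.4 and 91.04 CPM in female bladder, 72.3, 82.3, 74.5 and 96.8 in male bladder, 50.6, 61.4, 53.4 and 62.4 in female urethra, and 136, 131, 111 and 126 in male urethra. Male urethra lay above the 12 others and female urethra below them. The interaction was 1.07 ± 0.12 (adjusted p = 4.77e-04). Stat5a, a transcription factor activated by cytokine and growth hormone receptors (chromosome 11 from 100859351 to 100885169), read 10.2, 9.60, 11.4 and 10.1 CPM in female bladder, 11.1, 11.97, 15.2 and 10.6 in male bladder, 11.3, 11.3, 11.03 and 10.7 in female urethra, and 30.8, 28.7, 30.2 and 32.1 in male urethra. Only the male urethra libraries stood apart, at more than any of the 12 others, and the interaction was 1.22 ± 0.13 (adjusted p = 3.90e-04).

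Zbtb16, a zinc finger repressor, had an interaction of 1.88 ± 0.24 (adjusted p = 0.00121), with 3.46 ± 1.17 CPM in female urethra and 17.02 ± 1.87 in male urethra (mean ± SD, n = 4). With no litter block its adjusted p was 0.0713. Klf9, a zinc finger factor, had 0.71 ± 0.13 (adjusted p = 0.0205), with 21.8 ± 2.43 CPM in female urethra and 42.7 ± 3.72 in male urethra as the highest group. Maf, a leucine zipper transcription factor, had 0.69 ± 0.11 (adjusted p = 0.00976). Its male minus female difference was 0.38 ± 0.08 in the urethra and −0.31 ± 0.08 in the bladder, the latter with an adjusted p of 0.0886.

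Other members did not pass the test. The kinase gene Sgk1 had 0.56 ± 0.12 (adjusted p = 0.0503). The growth factor gene Fgf10 had 0.95 ± 0.25 (adjusted p = 0.132). DESeq2 called 11 of the 28, Sgk1 and Fgf10 among them, and limma-voom the same 6 as edgeR.

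**Figure D4:**
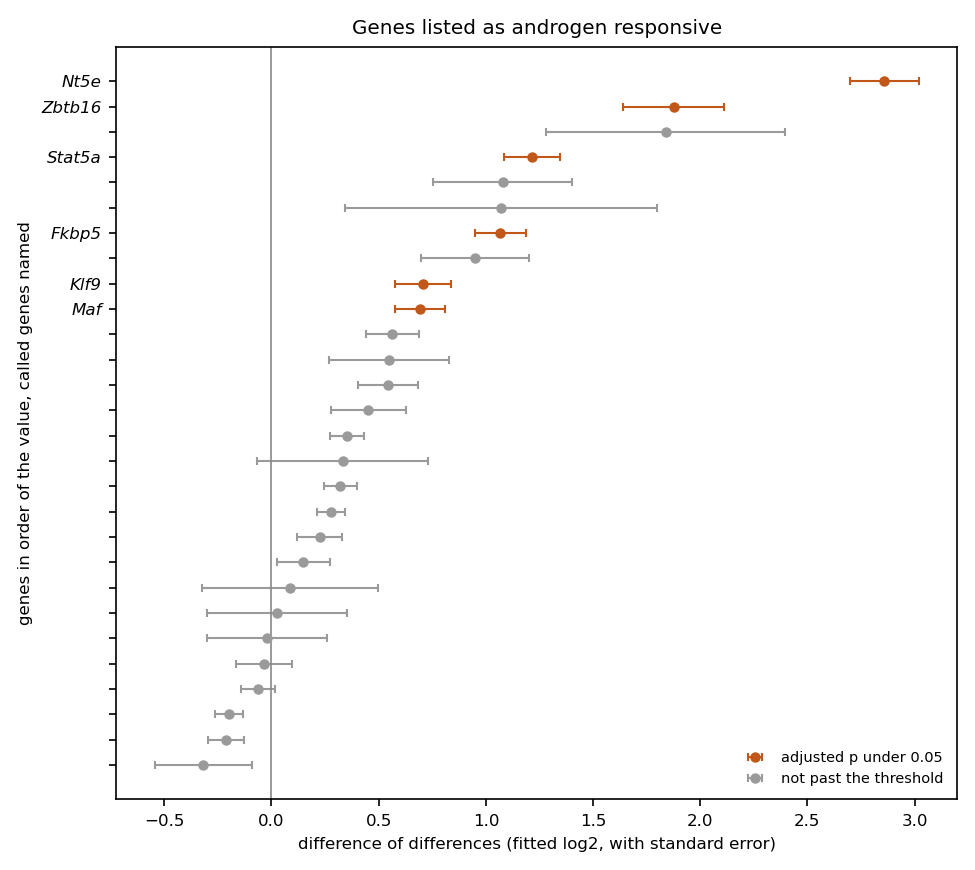
Fitted log2 difference of differences (horizontal axis) with its standard error for the 28 tested genes listed as androgen responsive, orange for the 6 with an adjusted p under 0.05 and grey for the others, with the 6 named on the vertical axis. Nt5e, at 2.86, is the farthest to the right, and the 6 genes below 0 run down to −0.32.

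Of 24 tested genes of steroid reception and metabolism, 0 were called by edgeR (3 at an unadjusted p under 0.05; 1 each by DESeq2 and limma-voom, Esr1), with a list median of −0.06. Beside the share of 0.904% over all tested genes, a count of 0 in 24 is no result about the list.

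Esr1, the gene of oestrogen receptor alpha (chromosome 10 from 4611593 to 5005614), read 8.22, 13.2, 16.96 and 18.9 CPM in female bladder, 8.38, 13.04, 7.32 and 8.06 in male bladder, 51.5, 53.2, 60.6 and 67.04 in female urethra, and 15.8, 14.5, 17.5 and 17.4 in male urethra. Female urethra stood above the 12 others, while male urethra overlapped the female bladder range. The interaction was −1.21 ± 0.28, negative in 4 of 4 litters (−1.73, −1.85, −0.58 and −0.72), and did not pass the test (adjusted p = 0.0878). It did pass with DESeq2 (adjusted p = 0.00221) and limma-voom (adjusted p = 0.0418). Srd5a2, which makes dihydrotestosterone (chromosome 17 from 74016955 to 74047916), had 17 counts over the 4 female bladder libraries, 29 over the male bladder libraries, 958 over the female urethra libraries and 3014 over the male urethra libraries. Its male minus female difference was 1.71 ± 0.21 in the urethra (adjusted p = 2.52e-04). The few bladder counts leave the interaction wide, at 1.07 ± 0.73 (adjusted p = 0.682).

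The start regions of the called genes were searched for the element bound by the glucocorticoid receptor and related steroid receptors, which is AGAACA facing its reverse complement across 3 bases, and for the single arm AGAACA. The search covered both strands of the 250 bases before the RefSeq gene start (GRCm38.p6). With no mismatch allowed, the full element was in 0 of the 12546 tested genes with a start region in the table. The arm was in 1336 of them (10.6%), in 8 of 96 positive genes (8.33%) and in 3 of 24 negative genes (12.5%). The STAT5 element TTCNNNGAA was in 5.71% of all, in 6.25% of the positive and in 4.17% of the negative genes. The start regions of Ramp1 and Lmcd1, which were among the 4 positive genes with the smallest p and hold no arm, are shown beside that of Trim63, which holds 1. Trim63 encodes a muscle ubiquitin ligase, had an interaction of 1.65 ± 0.18 (adjusted p = 4.42e-04) and was picked for its match. They are on the plus strand of chr1:91179572-91179821, chr6:112273508-112273757 and chr4:134314870-134315119, 5′ to 3′, with capitals marking the arm on the opposite strand.
Ramp1: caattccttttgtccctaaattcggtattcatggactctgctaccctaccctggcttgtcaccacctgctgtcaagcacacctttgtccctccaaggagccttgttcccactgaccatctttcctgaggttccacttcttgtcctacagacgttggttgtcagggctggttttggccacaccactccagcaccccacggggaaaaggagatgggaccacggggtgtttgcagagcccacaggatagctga
Lmcd1: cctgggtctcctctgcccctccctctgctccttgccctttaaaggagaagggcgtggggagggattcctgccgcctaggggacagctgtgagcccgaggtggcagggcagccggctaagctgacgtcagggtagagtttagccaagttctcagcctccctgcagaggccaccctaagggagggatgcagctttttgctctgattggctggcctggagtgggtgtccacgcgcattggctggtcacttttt
Trim63: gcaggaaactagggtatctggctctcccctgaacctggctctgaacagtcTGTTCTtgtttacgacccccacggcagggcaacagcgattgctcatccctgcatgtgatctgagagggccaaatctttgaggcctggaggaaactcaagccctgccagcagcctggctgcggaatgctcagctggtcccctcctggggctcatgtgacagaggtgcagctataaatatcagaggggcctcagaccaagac
The Trim63 match begins 200 bases before the gene start. With the bases just before it, the stretch reads tgaacagtcTGTTCT, which differs from the full element only in its first base. A match is only a string of letters, and these windows leave out enhancers.

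Basement membrane and growth factor genes were among the positive genes with the smallest p-values. Col4a5 and Col4a6 encode basement membrane collagen chains and lie beside each other on the X chromosome, on opposite strands, at chromosome X from 141475385 to 141689234 and chromosome X from 141165403 to 141474076. Col4a6 read 82.4, 77.3, 85.5 and 89.5 CPM in female bladder, 81.6, 88.4, 95.3 and 93.2 in male bladder, 46.3, 43.4, 42.4 and 41.8 in female urethra, and 86.3, 78.1, 82.5 and 92.7 in male urethra. Female urethra was the only group apart, and male urethra overlapped both bladder groups. The interaction was 0.86 ± 0.09 for Col4a6 (adjusted p = 2.91e-04) and 0.69 ± 0.07 for Col4a5 (adjusted p = 3.90e-04). Of 40 other collagen and matrix genes listed, 0 were called by edgeR, which beside 0.904% of all tested genes is no result about the list. An unadjusted p under 0.05 was found for 13 of the 40 and for 1900 of all 18254 tested genes. DESeq2 called 2, Postn and Dcn, and limma-voom 0. A value above 0 was found for 35 of the 40 and for 8728 of all tested genes, and the list median was 0.21. The list did not hold every such gene. Among those outside it, the collagen genes Col24a1 (1.39, adjusted p = 0.00152) and Col8a2 (0.74, adjusted p = 0.0343) were called. They are singled out after their values were seen. Of the 165 genes, 8 were on the X chromosome (4.85%, against 3.45% of tested genes) and 0 on the Y chromosome.

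Pdgfd, a platelet-derived growth factor (chromosome 9 from 6168584 to 6378850), read 37.3, 37.4, 34.8 and 32.96 CPM in female bladder, 30.3, 39.1, 30.7 and 34.8 in male bladder, 49.6, 40.1, 42.01 and 45.2 in female urethra, and 92.2, 89.7, 87.4 and 87.6 in male urethra. Male urethra was the highest group with no overlap, and the 2 bladder groups overlapped each other. The interaction was 1.09 ± 0.11 (adjusted p = 3.90e-04). Clu, the secreted chaperone clusterin (chromosome 14 from 65968483 to 65981547), read 32.7, 34.2, 29.2 and 35.2 CPM in female bladder, 28.8, 34.3, 30.1 and 35.2 in male bladder, 23.3, 26.2, 20.9 and 19.8 in female urethra, and 61.9, 69.1, 64.7 and 52.8 in male urethra. Male urethra lay above and female urethra below both bladder groups, and the interaction was 1.496 ± 0.13 (adjusted p = 6.65e-05).

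Further genes with small p-values act in signalling and transcription. Lmcd1, a LIM domain cofactor, stood at 64.3 ± 2.90 CPM in female bladder, 61.9 ± 1.75 in male bladder, 19.5 ± 1.36 in female urethra and 37.3 ± 2.14 in male urethra (mean ± SD, n = 4 in each group), with an interaction of 0.99 ± 0.08 (adjusted p = 6.65e-05). Rgs2, which damps signalling by G proteins, had 0.82 ± 0.09 (adjusted p = 3.90e-04). It shared the pattern of Ramp1 and Lmcd1: lower in the urethra in both sexes, and by more in females. Tfcp2l1, a transcription factor gene of the CP2 family, had 1.88 ± 0.20 (adjusted p = 3.90e-04), lower in the urethra in females and higher in males. Rasd1, a small GTPase that glucocorticoids induce, had 2.58 ± 0.28 (adjusted p = 3.90e-04) from 79 to 98 counts per male urethra library and 9 to 24 in the others.

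Among genes named for the size of the interaction, Ibsp, the bone sialoprotein gene, had 3.47 ± 0.58 (adjusted p = 0.0134). It read 8.62, 10.3, 10.9 and 6.37 CPM in female bladder, 11.6, 6.13, 5.18 and 7.84 in male bladder, 0.318, 0.120, 0.258 and 0.169 in female urethra, and 1.07, 2.06, 3.20 and 2.18 in male urethra. Female urethra was lowest, male urethra next, and both bladder groups overlapped above them. Its call was lost without female urethra replicates 3 and 4 and without replicate 4 alone, and with litter-by-sex and litter-by-compartment terms (adjusted p = 0.0852). Cyp2f2, a cytochrome P450 gene, had 14, 9, 14 and 136 counts summed over bladder of females and males and urethra of females and males, in that order. Its fitted interaction of 3.98 ± 0.86 (adjusted p = 0.0476) depends on the prior count at such levels, and the call held in 8 of 35 alternatives.

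Retinoic acid, WNT and BMP pathway genes gave 1, 3 and 1 calls, against a share of 0.904% over all tested genes. Aldh1a1, which makes retinoic acid from retinal (chromosome 19 from 20492715 to 20643465), was the 1 positive gene of 17 tested in its pathway (5.88%; list median 0.26). It read 20.6, 19.7, 16.1 and 17.4 CPM in female bladder, 20.5, 25.98, 19.4 and 22.3 in male bladder, 16.5, 10.6, 16.1 and 9.88 in female urethra, and 80.1, 82.9, 61.0 and 74.4 in male urethra. Male urethra stood far above the 12 others, and the interaction was 2.22 ± 0.23 (adjusted p = 3.90e-04). The sister genes Aldh1a2 (0.48 ± 0.20, adjusted p = 0.416) and Aldh1a3 (1.13 ± 0.40, adjusted p = 0.317) did not pass the test. Aldh1a1 was also on the mesothelium list, in which 10 of 11 values lay above 0, with a median of 0.36 (0.08 without female urethra replicates 3 and 4). Averaged over those 11 genes, log2 CPM was 3.07 to 4.18 in female urethra, 4.32 to 4.50 in male urethra, 6.01 to 6.31 in female bladder and 5.70 to 6.64 in male bladder, and its part in the result was not tested.

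Of 45 WNT pathway genes tested, 3 were positive (6.67%, against 0.904%; list median 0.02). Sfrp2, a secreted WNT antagonist, read 376, 363, 359 and 490.4 CPM in female bladder, 285, 368, 280.3 and 314 in male bladder, 394, 414, 436 and 428 in female urethra, and 701, 687, 708 and 630.3 in male urethra. Male urethra was highest with no overlap, and the interaction was 1.06 ± 0.14 (adjusted p = 0.00202). The ligand gene Wnt16 had 2.35 ± 0.43 (adjusted p = 0.0183), also highest in male urethra. Sfrp4, another antagonist, had 2.52 ± 0.48 (adjusted p = 0.0280) with a different shape: male bladder was the lowest group, at 1.30 ± 0.501 CPM against 5.10 ± 2.60 in female bladder, 5.29 ± 1.30 in female urethra and 7.99 ± 0.588 in male urethra. The list had 1 positive gene without female urethra replicates 3 and 4.

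Of 38 regulators of prostate and genital mesenchyme, 3 were positive (7.89%, against 0.904% of all tested genes; list median 0.07), namely Sfrp2, Penk and Fst. The values ran from −2.38 to 1.44, and 20 of 38 lay above 0. DESeq2 called 6 positive and 0 negative, and limma-voom the same 3 and Foxl2, which was negative. The edgeR count of positive genes was 1 of 38 without female urethra replicates 3 and 4. Penk, the enkephalin precursor gene, read 37.3, 54.2, 40.2 and 64.8 CPM in female bladder, 22.3, 44.04, 43.2 and 30.8 in male bladder, 130.2, 148, 136 and 139 in female urethra, and 252, 301, 269 and 251 in male urethra. The urethra was higher in both sexes and male urethra highest, with an interaction of 1.44 ± 0.23 (adjusted p = 0.0134). Fst, the activin antagonist follistatin, had 0.64 ± 0.14 (adjusted p = 0.0487) and was the 1 called gene of 40 tested in the BMP and TGF-beta pathway (2.5%, against 0.904%; 0 without female urethra replicates 3 and 4). Hoxb9 was the 1 called gene of 14 posterior Hox genes (7.14%, against 0.904%), which pattern the caudal body, with 0.64 ± 0.14 (adjusted p = 0.0469). The calls of Fst and Hoxb9 lay close to the threshold and were lost in 24 and 23 of 35 alternatives. The FGF (27 tested) and hedgehog (18 tested) lists had 0 genes called by edgeR. Beside 0.904% of all tested genes, counts of 0 in lists of these sizes are no result about them. At an unadjusted p under 0.05 they had 5 and 1, against 1900 of all 18254 tested genes. DESeq2 called Fgf10 in the FGF list, and limma-voom called 0 in both.

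The negative genes were those whose urethra-to-bladder step was lower in males. Pamr1, a secreted peptidase-domain protein gene (chromosome 2 from 102550012 to 102643041), had the smallest p among them. It read 29.1, 26.4, 32.96 and 28.4 CPM in female bladder, 27.4, 23.9, 29.8 and 27.8 in male bladder, 59.98, 63.2, 60.5 and 59.5 in female urethra, and 32.1, 32.96, 30.5 and 28.6 in male urethra. Female urethra stood above the 12 others, and the male urethra range overlapped female bladder. The interaction was −0.87 ± 0.10 (adjusted p = 7.45e-04), with litter values of −0.81, −0.80, −0.84 and −1.03.

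Cpxm2, a carboxypeptidase-like gene (chromosome 7 from 132032687 to 132154739), had the opposite arrangement. It read 26.2, 23.1, 41.6 and 28.6 CPM in female bladder, 35.6, 22.5, 39.96 and 27.1 in male bladder, 15.5, 13.1, 9.74 and 18.2 in female urethra, and 2.85, 2.52, 2.25 and 2.14 in male urethra. The male urethra libraries were lowest by a wide margin, and the bladder groups overlapped. The interaction was −2.60 ± 0.33 (adjusted p = 0.00232). Colec10, a collectin gene (−1.94 ± 0.33, adjusted p = 0.0117), and Ephb1, an ephrin receptor gene (−0.79 ± 0.12, adjusted p = 0.00555), were also lowest in male urethra. With no litter block the adjusted p of Colec10 was 0.0858.

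Female urethra was the highest group for Gdf5, a BMP-family growth factor gene that marks forming joints (−1.47 ± 0.23, adjusted p = 0.00595). It was also highest for Enpp2, which encodes the lysophosphatidic acid-producing enzyme autotaxin (−1.003 ± 0.17, adjusted p = 0.0182). The Notch pathway gene Dtx4 (−0.54 ± 0.08, adjusted p = 0.00289), Tent5a, a poly(A) polymerase gene (−0.81 ± 0.11, adjusted p = 0.00289), and Fibin (−0.51 ± 0.08, adjusted p = 0.00976) shared this place. So did Tcerg1l (−0.94 ± 0.16, adjusted p = 0.0107), the synaptic gene Lrrtm1 (−1.31 ± 0.22, adjusted p = 0.0122) and, at 24 to 45 counts per female urethra library, the zinc finger gene Zfp42 (−1.97 ± 0.40, adjusted p = 0.0346). For Ikzf3, a lymphoid transcription factor gene, no group stood apart (−1.59 ± 0.27, adjusted p = 0.0117). Of these genes, Dtx4 and Tent5a kept their calls without female urethra replicates 3 and 4. Tent5a lost its call without litter 1 (adjusted p = 0.0669) and Dtx4 without litter 3. With a block by litter and sex pool the adjusted p of Enpp2 was 0.0765, and with litter-by-sex and litter-by-compartment terms it was 0.0814 for Enpp2 and 0.0605 for Zfp42. With no litter block it was 0.0584 for Dtx4.

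**Figure D5:**
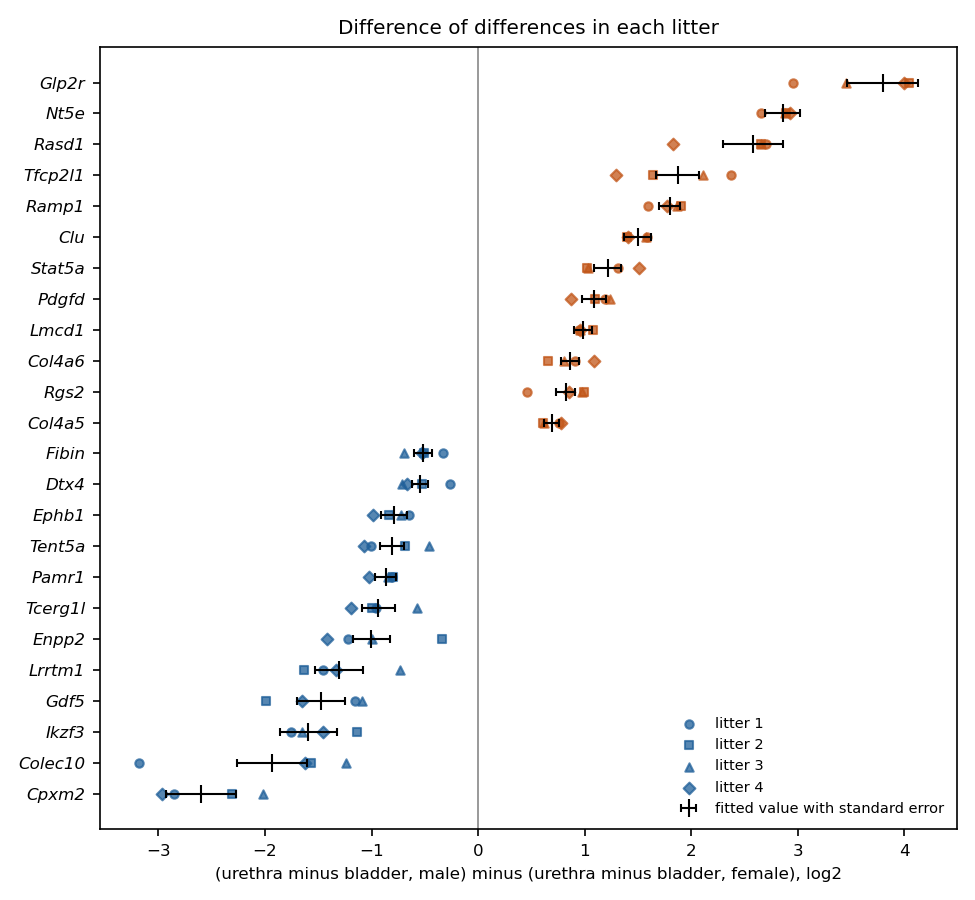
Difference of differences on the log2 scale (horizontal axis) for the 12 positive and 12 negative genes with the smallest p, with 1 symbol for each of the 4 litters and a black bar for the fitted value with its standard error. The 4 litter values of each gene lie on the same side of 0, which the rule that named these genes required. They lie farthest from 0 for Glp2r on the right and Cpxm2 and Colec10 on the left.

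Dsc3, which encodes the desmosomal cadherin desmocollin 3 of stratified epithelia, was the 1 called gene of 28 in the epithelium list (3.57%, against 0.904%; list median 0.03). Its interaction was −1.69 ± 0.33 (adjusted p = 0.0288). It read 1.57, 4.55, 2.33 and 2.02 CPM in female bladder, 1.56, 2.09, 1.48 and 1.45 in male bladder, 26.6, 24.1, 18.4 and 28.9 in female urethra, and 5.06, 5.14, 4.85 and 4.35 in male urethra. Female urethra stood above the 12 others, including replicates 3 and 4, which were lowest in the epithelium list as a whole. The values of the list ran from −1.98 ± 1.46 for Dsg3, a desmosomal cadherin gene (adjusted p = 0.719), to 0.64 ± 0.37 for the keratin gene Krt7, and 15 of 28 lay above 0. Standard errors were wide for many of them, such as basal Krt5 at −0.07 ± 0.50 and urothelial Upk2 at 0.03 ± 0.45. With a block by litter and sex pool the adjusted p of Dsc3 was 0.0682. With the epithelium mean of each library as a covariate 250 genes were called, 163 of the 165 among them. Without female urethra replicates 3 and 4 the epithelium list median moved to −0.39, 3 of 28 values lay above 0 and Dsc3 lost its call.

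With 1 group counted a gene, a bladder group stood apart for 19 of the 165 genes. Dmrt2, a DM-domain transcription factor gene of the somite (chromosome 19 from 25672411 to 25678991), had an interaction of 3.08 ± 0.64 (adjusted p = 0.0431). Its counts were 46, 47, 13 and 80 in female bladder, 5, 6, 4 and 7 in male bladder, 34, 50, 51 and 29 in female urethra, and 44, 49, 32 and 32 in male urethra. Male bladder was lowest with no overlap, and the urethra groups overlapped each other. The sex difference was −3.15 ± 0.50 in the bladder (adjusted p = 0.0157) and −0.06 ± 0.37 in the urethra. The call held in 14 of 35 alternatives, and the adjusted p was 0.113 with a block by litter and sex pool.

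Pnoc, the precursor gene of nociceptin (chromosome 14 from 65400673 to 65425472), was lowest in female bladder. Its counts were 0, 6, 3 and 2 in female bladder, 98, 164, 62 and 80 in male bladder, 98, 39, 100 and 81 in female urethra, and 196, 239, 227 and 171 in male urethra. Males were higher in both compartments, by 5.01 ± 0.52 in the bladder and 1.42 ± 0.29 in the urethra, and the interaction was −3.59 ± 0.66 (adjusted p = 0.0237). With so few counts in female bladder the fitted size depends on the prior count, and the call held in 18 of 35 alternatives.

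The other genes of this kind were taken up after their values were seen. Male bladder was lowest for the transcription factor gene Ebf2 (2.79 ± 0.56), the metalloprotease gene Adam12 (0.76 ± 0.12), the elastic fibre gene Emilin2 (0.76 ± 0.16), the mechanosensitive channel gene Piezo2 (0.88 ± 0.19), Lgi2 (0.70 ± 0.12) and Plcl2 (0.69 ± 0.12). Female bladder was lowest for the serotonin receptor gene Htr4 (−2.50 ± 0.53) and the asparagine synthetase gene Asns (−0.51 ± 0.10). It was highest for the collagen gene Col8a2 (0.74 ± 0.15) and the imprinted gene Zim1 (1.34 ± 0.27). Without male bladder replicate 3, which had the high neuron score, 7 of the 19 genes were called. The sign was the same for 19 of 19, in a fit of the other libraries that had called them. Leaving out any 1 bladder library left 6 to 12 of the 19 called, Adam12, Lgi2 and Plcl2 each time.

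Read as a compartment difference, the interaction took 4 shapes. Urethra and bladder differed in both sexes with 1 direction for 58 of the 165 genes, in both sexes with opposite directions for 31, in males alone for 38 and in females alone for 38. Over all tested genes a compartment difference was called for 69.1% in females (34% with the urethra higher, 35% with it lower) and for 67.4% in males (33% and 34.4%), so a call in either sex was common. Of the 31 that turned over, 28 were lower in the urethra of females and higher in that of males, among them Nt5e, Glp2r, Clu, Col4a5, Tfcp2l1, Aldh1a1, Fkbp5 and Klf9. The other 3 turned the opposite way and were Tent5a, Gdf5 and Fibin, with steps of 0.84 ± 0.16 in females and −0.64 ± 0.17 in males for Gdf5.

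Among lists of other cell types and of cell state, mesothelium (11 tested) and cartilage and bone (12 tested) had 1 positive gene each (9.09% and 8.33%, against 0.904%), which were Aldh1a1 and Ibsp. Smooth muscle (24 tested), skeletal muscle (27), glia (14), endothelium (16), immune cells (13), red blood cells (11), genital duct and gonad (14), proliferation (20) and immediate early and heat shock genes (23) had 0 called by edgeR. Beside the share of 0.904%, counts of 0 in lists of these sizes are no result about them. In that order, 3, 1, 3, 6, 3, 0, 4, 6 and 3 had an unadjusted p under 0.05, against 1900 of all 18254 tested genes. DESeq2 called 1 gene in these lists, Cldn5 of endothelium, and limma-voom 0. In these 9 lists the medians ran from −0.18 for glia to 0.55 for genital duct and gonad (9 of 14 above 0). They were −0.04 for smooth muscle, −0.09 for skeletal muscle, 0.29 for endothelium and −0.11 for proliferation. Values above 0 were 7 of 24 for smooth muscle, 11 of 27 for skeletal muscle, 5 of 14 for glia and 15 of 16 for endothelium. They were 13 of 13 for immune cells, 8 of 11 for red blood cells, 3 of 20 for proliferation and 13 of 23 for immediate early and heat shock genes. Over all tested genes 8728 of 18254 values lay above 0. The X inactivation and escape list (10 tested) and the Y chromosome list (4 tested) had 0 called by each tool and 0 at an unadjusted p under 0.05. In lists this small these counts of 0 are likewise no result.

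The neuron list had 0 of 20 genes called by edgeR (3 at an unadjusted p under 0.05) and 0 by DESeq2 or limma-voom. Beside 0.904% of all tested genes, a count of 0 in 20 is no result about the list. Its values lay below 0 for 20 of 20 genes, with a median of −1.15. Chat, which makes acetylcholine, had −1.53 ± 0.65 (adjusted p = 0.423). The summed level of the list was 204 to 1098 CPM in male bladder, 278 to 387 in female bladder, 3481 to 4325 in male urethra and 3891 to 5883 in female urethra. The highest male bladder value was that of replicate 3. Without that library the list median was −0.16 and 3 of 20 values lay above 0.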

How the data were processed

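Poly(A) RNA of 16 libraries was sequenced with a stranded kit from 250 ng of total RNA as 100 bp paired ends, per the labels' protocols. Per the submitters' processing notes the authors used bcl2fastq, HISAT2 2.1.0, SAMtools, Subread 1.6.3, DESeq2 and GRCm38. No GENCODE release was given in the sources used here. The deposited values are raw counts of read pairs per gene symbol, made by featureCounts with reverse strand setting, per the file headers. A second, normalized table was not used here.

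Counts of 55228 symbols were read as deposited. In R 4.3.3, edgeR 4.0.16 (TMM, filterByExpr by group, robust quasi-likelihood fit, Benjamini-Hochberg over 18254 tested genes, threshold 0.05) fitted the 4 groups with the litter as block. The standard error is the log2 value divided by the root of F, an approximation. Alternatives used limma 3.58.1 and DESeq2 1.42.0. Figures used matplotlib 3.10.9 in Python 3.11.15, with pandas 2.3.3. CPM use TMM-scaled totals, and log2 CPM a prior count of 2. The fit was tested on simulated data.

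The labels give each replicate number as a litter. Deviations from the group means correlated at 0.09 to 0.41 (median 0.19) for urethra and bladder of 1 litter and sex, and at a median of 0.12 for the sexes of 1 litter and compartment. Pairs that shared only the litter also had a median of 0.12. Pairs that shared neither litter nor group ran from −0.397 to 0.35 (median −0.051), so the ranges overlapped. Over 24 pairs within groups, chi-square per degree of freedom was 4.91 to 37.16, so no library was a copy of another. The p-values rest on the spread between pools that remains within groups after the litter block. Urethra and bladder of 1 litter and sex shared a pool of embryos, which that block does not model. The block by litter and sex pool is the alternative that does.

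Named were, among called genes with 1 sign in 4 litters and at least 1 CPM in 1 group, the 12 with the smallest p and the 4 largest in each direction, called members of the lists (up to 4 per list, and each one of the steroid, androgen and adenosine lists), and Esr1, Srd5a2 and Nt5e. Another gene that the rule names is not reported here. Unnamed gene models were only counted. There were 26 lists with 545 genes. The comparison, its lists and its members were chosen with earlier results of these data known.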

Additional observations from a re-analysis of the deposited data

Results flagged for a closer look

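In 232 checks of single genes and marker lists within groups of 4, 9 flagged a library as apart from the 3 others. The check weighs the gap against the range of the 4 values, so a small gap can be flagged. Chance flags about 1 in 20 groups. Tent5a read 57.2 CPM in male bladder replicate 2, against 66.8 to 69.0 in the 3 others, and Ephb1 read 19.2 in female urethra replicate 2, against 21.5 to 21.6. Fibin read 72.9 CPM in male bladder replicate 1, against 80.0 to 81.0. Maf read 115.5 CPM in male urethra replicate 4, against 128 to 129.7. Klf9 read 48.3 CPM in male urethra replicate 1, against 40.5 to 41.5. Sfrp2 read 490.4 CPM in female bladder replicate 4, against 359 to 376. Among mean log2 CPM of marker lists, glia stood at 2.80 in female bladder replicate 2, against 2.55 to 2.58, and immune cells at 3.60 in female urethra replicate 4, against 3.76 to 3.77. Red blood cells stood at 3.95 in male urethra replicate 1, against 3.48 to 3.56.

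The sex difference differed between urethra and bladder for 165 genes by the test of the interaction itself. For Ptn, with an interaction of 0.89, it was called in opposite directions in the 2 compartments.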

How the results depend on the processing

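Over 35 alternatives, Ramp1, Nt5e, Clu, Lmcd1, Glp2r, Col4a6, Pdgfd, Stat5a, Col4a5, Rgs2, Tfcp2l1, Rasd1, Pamr1, Fkbp5 and Aldh1a1 kept their calls in all 35. Calls lost most often were those of Cyp2f2 (27 alternatives), Fst (24), Hoxb9 (23), Dmrt2 (21), Zfp42 (20), Ramp2 (20), Dsc3 (18), Pnoc (17) and Sfrp4 (16).

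The pairing by litter is given by the labels. With no replicate block 122 genes were called (98 positive and 24 negative), 113 of them among the 165. With a replicate block by litter and sex pool it was 147 (108 and 39), and with litter-by-sex and litter-by-compartment terms in limma 202 (138 and 64). Counts under other settings moved as follows, and the cause was not tested. DESeq2 called 312 (220 and 92), and 638 genes for the sex difference in the bladder. The epithelium covariate gave 250 (193 positive), with 830 and 25 genes for the sex difference in urethra and bladder. The neuron covariate, chosen after seeing the data, gave 99 (82 and 17), with 1379 and 2496 genes for the compartment difference in females and males. The skeletal muscle covariate gave 1112 and 961 genes for these. Without female urethra replicates 3 and 4 there were 64 (57 and 7), with 421 for the sex difference in the urethra. A threshold of 0.01 for the adjusted p gave 60 (53 and 7), with 634 in the urethra and 22 in the bladder.

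Leaving out 1 library or 1 litter gave 46 to 201 interaction genes (40 to 160 positive, 6 to 41 negative). It gave 625 to 1642 genes for the sex difference in the urethra and 19 to 205 in the bladder. A group was also counted as apart when its mean lay farther from the nearest other mean than the 3 others lay from each other. Then female urethra stood apart for 28.5%, male urethra for 27.3% and no group for 33.9% of the 165 genes. With 4 pools per group, small differences and genes with few counts, such as Srd5a2 in the bladder, are not resolved.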
